A study of Mus musculus with 2 samples.

Results

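The cytochrome P450 genes of the mouse were examined on the deposited arrays of incisor tooth germ from wild-type (WT) and *Sox21* KO mice. A P450 gene was taken as any gene whose name on the array is Cyp followed by a family number, a subfamily letter and a gene number. The Cyp26 genes, which degrade retinoic acid, and *Cyp51*, a step of cholesterol synthesis, were left out by that rule. Names of another form were also left out, such as pseudogenes and the P450 genes *Ptgis* and *Tbxas1*. The rule gave 83 genes with 106 probes, of 21246 genes on the array that carry a RefSeq symbol. The WT mice were C57BL/6J and the other mice are labelled *Sox21* KO, after the gene of the transcription factor Sox21, and for these the sources read give no strain, no sex and no number of animals in a sample. The sample labels give the tissue as incisor at postnatal day 0, while the methods of the study give 1 day after birth and the series text speaks both of ameloblasts, the cells that make enamel, and of whole tooth germs. Each genotype was measured on 1 Agilent one-colour array, so no difference below has a replicate check or a test, and precision is limited by the number of arrays. The targeted gene was still well above background on the array labelled *Sox21* KO. The brighter of its 2 probes went from 1362 on WT to 659, a log2 ratio of -1.09 ± 0.20, and the other from 286 to 103, a ratio of -1.51. For its knockout mice the paper cites the same source as for a reporter mouse with GFP inserted at the *Sox21* locus. The sources read do not say which part of the gene is deleted, so these probes cannot tell loss of the gene from a lower level, and *Sox21* KO is used here as the label.

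P450 enzymes are haem proteins that insert an oxygen atom from molecular oxygen into a lipid, a steroid, a vitamin or a foreign compound. Those in the endoplasmic reticulum take electrons from P450 oxidoreductase, and those in mitochondria take them from ferredoxin. Families 1 to 3 and part of family 4 are known mostly for drugs, pollutants and fatty acids in liver, lung and nasal mucosa, while the families with higher numbers make or degrade steroid hormones, vitamin D and bile acids. In tooth, vitamin D is the best known of these substrates, because its lack disturbs the mineralization of enamel and dentin.

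Of the 83 P450 genes, 29 were well above background on both arrays by the scanner's own mark, 3 on the *Sox21* KO array alone, 0 on the WT array alone and 51 on neither. The share measured on both arrays was 34.9% of P450 genes, against 64.9% of all genes with a symbol. On neither array were 61.4% of P450 genes, against 31.7% of all genes. The 51 genes had processed signals up to 24.5 on the WT array and 25.0 on the *Sox21* KO array, near the lowest signals of any probe marked as well above background, which were 21.3 and 19.5. A signal at that level gives no ratio, and it does not show that a gene was off.

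**Figure D1:**
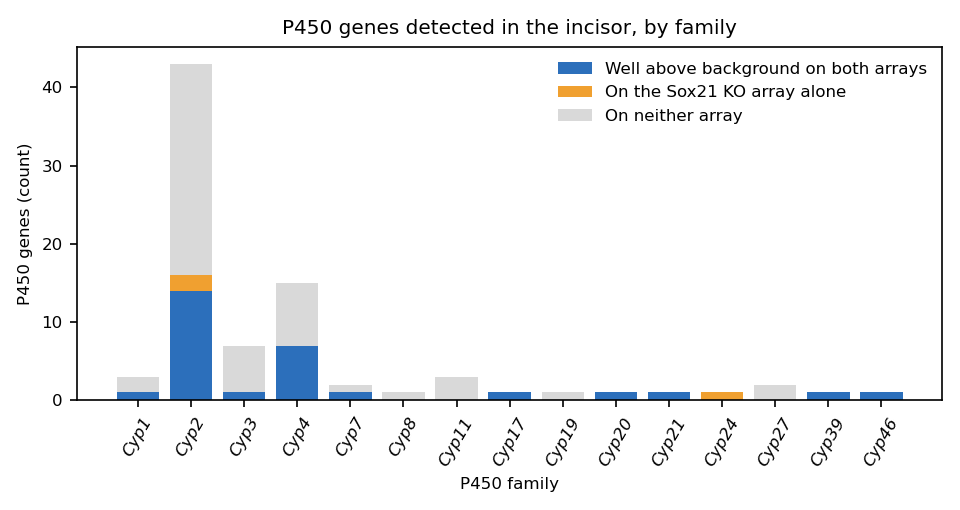
Number of P450 genes on the array by family (x axis) and by where their probe was well above background (y axis, count of genes). Cyp2, with 43 genes of which 14 were measured on both arrays, and Cyp4, with 7 of 15, held most of the measured genes, while Cyp3 had 1 of 7 and Cyp11 had 0 of 3.

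A pair of genes stood apart from the rest of the P450 genes. *Cyp2f2*, which encodes the enzyme known for activating naphthalene in the club cells of the airway, had a processed signal of 127 ± 13.5 (scanner error) on the WT array and of 783 ± 78.4 on the *Sox21* KO array. *Cyp2t4*, its neighbour in the Cyp2 cluster of chromosome 7, for whose enzyme no substrate is stated here, went from 188 ± 19.4 to 868 ± 86.9. After each array was scaled to its 75th percentile, *Cyp2f2* was 5.97-fold higher in *Sox21* KO, with a log2 ratio of 2.58 ± 0.21, and *Cyp2t4* was 4.49-fold higher, with a log2 ratio of 2.17 ± 0.21. The error joins the scanner's errors of both arrays and leaves out any spread between animals. Both probes lay under the 75th percentile of the WT array and over that of the *Sox21* KO array. Among the 13791 genes measured on both arrays *Cyp2f2* had the largest rise and *Cyp2t4* the sixth largest (rank 6).

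At least 2-fold higher in *Sox21* KO were only these 2 P450 genes, or 6.90% of the 29 measured, where 0.74% of all measured genes passed that fold. At least 2-fold lower were 0 P450 genes, against 0.667% of all measured genes. A threshold of 1.5-fold in place of 2-fold added no P450 gene in either direction, where 3.20% of all measured genes were higher and 2.98% lower by that fold. The remaining 27 measured P450 genes had log2 ratios from -0.38 to 0.49, with a median of 0.05. All 27 lay within 0.5 of 0, so that 93.1% of the 29 did, against 91.1% of all measured genes. Of all 29, 17 were higher and 12 lower in *Sox21* KO, and the share of 58.6% above 0 stood beside 52.4% of all measured genes. With the median of each array in place of the 75th percentile, 69.0% of the 29 were above 0, against 65.6% of all measured genes. A log2 ratio smaller than its own scanner error was found for 20 of the 29 genes, or 69.0%, against 66.1% of all measured genes.

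**Figure D2:**
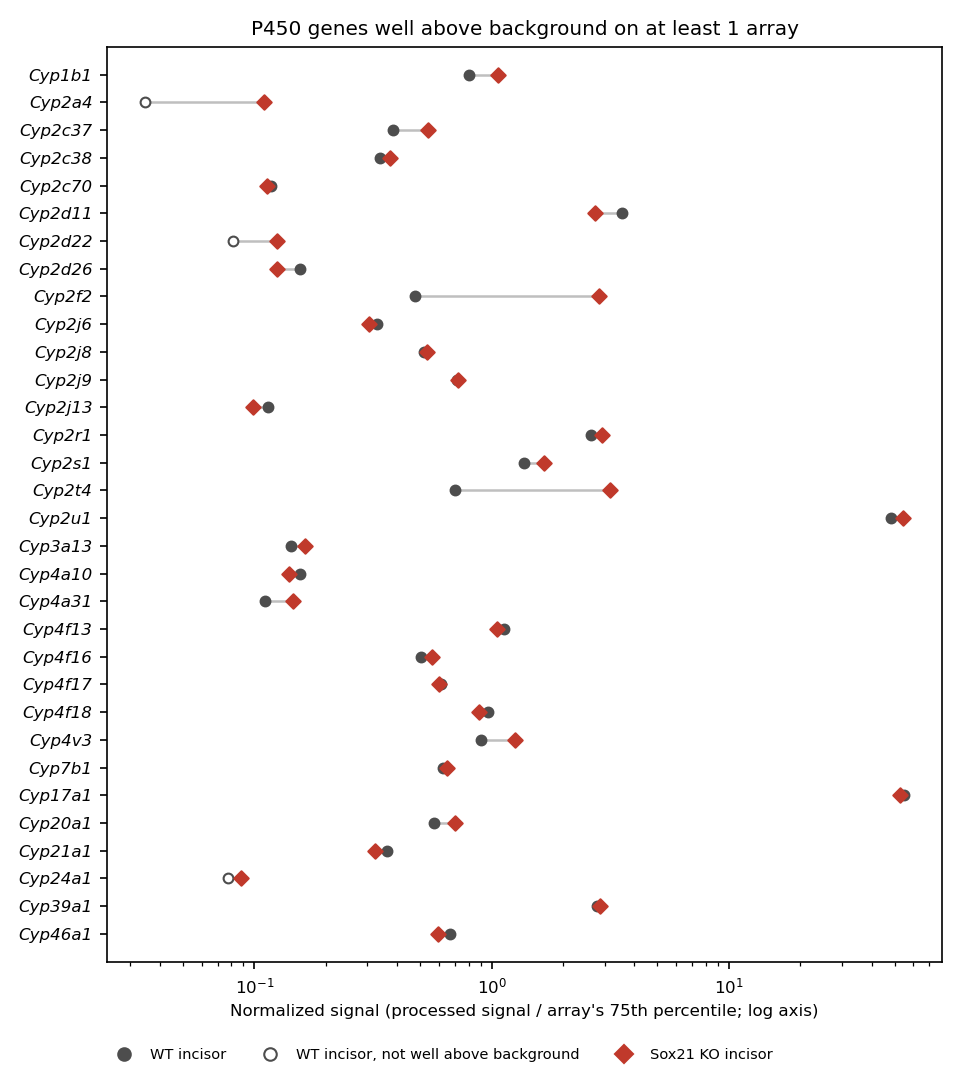
Normalized signal (x axis, processed signal divided by its array's 75th percentile, log axis) of the 32 P450 genes that were well above background on at least 1 array, in order of their names, with WT as circles and *Sox21* KO as diamonds. *Cyp2f2* moved from 0.476 to 2.84 and *Cyp2t4* from 0.701 to 3.15, while most other pairs lie close together. Positions of different genes come from different probes and do not rank their transcripts.

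The sequences upstream of *Cyp2f2* and *Cyp2t4* are shown because these 2 genes rose together and lie next to each other. Each line gives the 250 bases before the annotated start, from RefSeq on GRCm38.p6, plus strand, at chr7:27119705-27119954 for *Cyp2f2* and at chr7:27153464-27153713 for *Cyp2t4*. Capitals mark the longest run that both sequences share, of 11 bases.
Cyp2f2: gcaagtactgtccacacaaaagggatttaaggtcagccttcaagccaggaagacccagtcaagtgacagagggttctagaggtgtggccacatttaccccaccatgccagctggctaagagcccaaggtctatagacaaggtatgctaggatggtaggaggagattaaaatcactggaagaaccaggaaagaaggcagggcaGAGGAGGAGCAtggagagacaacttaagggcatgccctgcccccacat
Cyp2t4: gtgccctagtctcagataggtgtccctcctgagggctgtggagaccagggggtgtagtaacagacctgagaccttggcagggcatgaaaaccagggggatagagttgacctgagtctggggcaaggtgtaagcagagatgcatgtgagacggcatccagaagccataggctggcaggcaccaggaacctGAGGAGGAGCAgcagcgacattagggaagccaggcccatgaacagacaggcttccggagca
The shared run occurs on either strand in 0.164% of the 32851 promoter sequences of the same length. Neither sequence holds TATAAA, the TATA box, which 12.4% of all promoters hold on either strand. Neither holds ACAAT, the core that Sox factors bind, found in 27.7% of promoters, or GCGTG, the core bound by the dioxin receptor, found in 28.2%. The absence of these letters from 250 bases says nothing of sites elsewhere.

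The probe of *Cyp2t4* is shown because the value of this gene, like that of *Cyp2f2*, rests on a single probe. It lies at chr7:27943506-27943565 of mm9, the build of the array files, on the plus strand.
Cyp2t4 probe: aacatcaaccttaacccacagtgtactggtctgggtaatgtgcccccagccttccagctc
The probe of *Cyp2f2* lies at chr7:27918570-27918629 on the same strand, 24.9 kb away, near the end of its transcript. The longest run of bases shared by both probes is 5, so neither probe is a copy of the other.

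In the RefSeq annotation, 0 protein-coding genes lie between *Cyp2f2* and *Cyp2t4*, with 20053 bases between them. The genes around them were looked at after the values of both were known. The P450 genes of this stretch of chromosome 7 form the Cyp2 cluster, which is known for enzymes of lung, nose and liver. From *Cyp2s1* at its far end to 250 kb past *Cyp2t4*, 12 P450 genes have a probe, of which 3 were measured on both arrays. The third, *Cyp2s1*, which is known from skin and other epithelia and acts on retinoic acid, had signals of 367 on WT and 460 on *Sox21* KO and a log2 ratio of 0.28 ± 0.21. *Cyp2b10*, *Cyp2b13*, *Cyp2b9*, *Cyp2b23*, *Cyp2b19*, *Cyp2g1*, *Cyp2a22* and *Cyp2a12* were well above background on neither array. The rise was therefore measured in the 2 P450 genes at 1 end of the cluster, and the dim probes of these 8 give no ratio. *Cyp2a4*, which lies within the cluster, was on the *Sox21* KO array alone and is given below with a bound.

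The other genes of the window did not pass 2-fold. Those measured on both arrays number 13, with log2 ratios from -0.43 to 0.39, and 11 of them lie past *Cyp2t4*, from -0.43 to 0.31. *Egln2*, which encodes an oxygen-sensing prolyl hydroxylase, is the next gene, on the opposite strand, and its probe begins 113 bases past the end of the *Cyp2t4* probe. *Egln2* had signals of 5488 on WT and 6657 on *Sox21* KO, with a log2 ratio of 0.24. At *Rab4b*, the gene after it, the log2 ratio was -0.01.

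**Figure D3:**
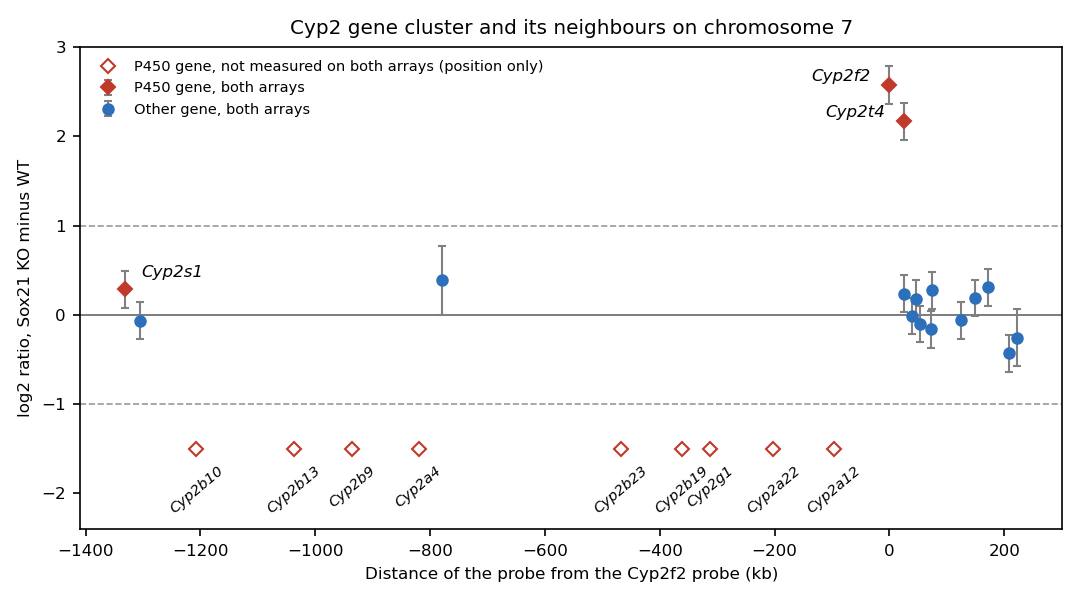
log2 ratio (y axis, *Sox21* KO minus WT, bars give the scanner error) of genes along the Cyp2 cluster of chromosome 7, by distance of their probe from that of *Cyp2f2* (x axis, kb). Filled diamonds are P450 genes and circles other genes measured on both arrays, and open diamonds, drawn at an arbitrary height, give only the positions of the 9 P450 genes that were not. *Cyp2f2* and *Cyp2t4* lie above the dashed 2-fold line, and every other plotted ratio lies between -0.43 and 0.39.

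*Cyp2a4*, a steroid hydroxylase of the same cluster, was well above background on the *Sox21* KO array alone. Its signals were 9.29 on WT and 30.2 on *Sox21* KO, and against the lowest signal that the WT array marks as well above background the rise was at least 1.38-fold. The probe that gave this value is shown because the second probe of the gene was well above background on neither array, at 4.74 and 5.11. It spans an exon junction between chr7:27098659 and chr7:27099724 of mm9.
Cyp2a4 probe: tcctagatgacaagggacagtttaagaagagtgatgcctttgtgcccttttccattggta
*Cyp2a4* has a near-identical relative, *Cyp2a5*, for which no value was analysed here, and signal from its transcript could not be told apart at this probe. On the *Sox21* KO array alone were also *Cyp2d22*, a member of the drug-metabolizing Cyp2d group, at 21.7 and 34.5, and *Cyp24a1*, at 20.8 and 24.2. By the same rule *Cyp24a1* was at least 1.10-fold higher. The WT signal of *Cyp2d22*, though not marked, was above that lowest signal, and its own ratio was 1.54-fold, or 0.63 ± 0.48 on the log2 scale. None of the 3 was shown to be 2-fold higher. The bound of *Cyp2a4* is a minimum, and its own signals gave 3.16-fold, or 1.66 ± 0.97 on the log2 scale. For all genes with a symbol, 2.11% were on the *Sox21* KO array alone and 1.29% on the WT array alone.

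The tissue was checked with marker genes, because *Cyp2f2* is known from airway and nose. In bulk RNA, a change in the number of cells of a type and a change in the RNA of each such cell cannot be told apart. The ameloblast genes were bright on both arrays, with *Amelx*, the main enamel protein gene, at 394211 and 428250. Of the 7 ameloblast genes, 2 were higher and 5 lower in *Sox21* KO, with a median log2 ratio of -0.62. *Amtn*, the amelotin gene, had -1.89 and *Klk4*, a protease of enamel maturation, -1.05, both past 2-fold, and the summed normalized signal, carried by the brightest genes, was 3162 and 2866. Of 9 airway secretory and club cell genes, 1 was measured on both arrays, 6 on neither, and their summed normalized signal was 0.804 in WT and 0.642 in *Sox21* KO. *Scgb1a1*, the secretoglobin that defines club cells, was at 23.7 and 24.4, well above background on neither array. *Muc5b*, a secreted mucin gene and the one measured on both arrays, went from 66.0 to 37.8, a log2 ratio of -0.84 ± 0.28. *Sftpc*, a surfactant gene of the alveolus, went from 4.95 to 51.6, and *Bpifa1*, secreted in the nose and upper airway, from 66.2 to 7.26, each on 1 array alone. The airway list thus held genes higher and genes lower in *Sox21* KO, at low signals, and the part of such cells in the values of *Cyp2f2* was not tested. Of 7 genes of the olfactory epithelium, 4 were measured, 2 higher and 2 lower, with a summed signal of 1.61 and 1.94. *Omp*, which defines mature olfactory neurons, was on neither array.

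Some suprabasal skin genes were higher in *Sox21* KO, as *Cyp2f2* and *Cyp2t4* were. Of 7 suprabasal skin genes, 5 were measured on both arrays, all 5 higher and 3 at least 2-fold, and the summed normalized signal went from 8.54 to 17.6. *Krt1*, a keratin of differentiating epidermis, went from 196 to 553, *Lor*, the gene of loricrin, from 819 to 1874, and *Krtdap* from 687 to 1601. *Krt10* had a log2 ratio of 0.34 ± 0.21, and *Krt2* of 0.16 ± 0.21, within its error. *Flg*, the filaggrin gene, went from 23.7 to 126 and was on the *Sox21* KO array alone, and *Ivl*, the involucrin gene, was on neither array. Of 3 oral mucosa genes, *Krt13* went from 2483 to 3760 and *Krt4* from 13.4 to 171, the latter on the *Sox21* KO array alone, and the sum went from 9.34 to 14.3. The study's own table lists *Krt10* and *Krt13* as more than 2-fold higher in *Sox21* KO, at lower normalized signals than the brightest probes used here. The part of suprabasal skin and oral mucosa cells in the rise of *Cyp2f2* and *Cyp2t4* was not tested. None of the 4 P450 genes listed for skin was measured as 2-fold apart, *Cyp2s1* among them. *Cyp2b19*, the keratinocyte enzyme that makes epoxides of arachidonic acid, was at 11.1 and 20.2, *Cyp4f39*, which makes the very long hydroxy fatty acids of the skin barrier, at 4.83 and 11.0, and *Cyp4b1* at 5.28 and 12.9, each well above background on neither array.

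Of 8 hepatocyte genes with a probe, 7 were on neither array, including *Alb* and *Afp*, and *Apoa2* was at 1736 and 1876. All 5 salivary gland genes with a probe were on neither array. Of 5 adipocyte genes none was measured on both arrays, with *Cidec* on the WT array alone and at least 2.83-fold lower in *Sox21* KO and *Plin1* on the *Sox21* KO array alone and at least 1.24-fold higher, and of 5 sebaceous gland genes *Cidea* went from 66.7 to 135 while *Scd3* went from 293 to 180. The 3 endothelial genes had log2 ratios from -0.02 for *Kdr* to 0.62 for *Pecam1*, and the 3 macrophage genes from -0.03 for *Adgre1* to 0.50 for *Cd68*. The 3 measured genes of pericytes and smooth muscle had ratios from 0.20 to 0.28, and the 3 odontoblast genes from -0.0085 for *Dspp* to 0.93 for *Dmp1*.

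Among the P450 genes of steroid hormones, *Cyp17a1*, whose enzyme carries out the hydroxylase and lyase steps on the way to androgens, had signals of 14659 ± 1466 on WT and of 14552 ± 1455 on *Sox21* KO. The log2 ratio was -0.05 ± 0.20, smaller than its error. The gene rests on 1 probe, which is shown for that reason. It lies on the minus strand and spans an exon junction between chr19:46742594 and chr19:46743207 of mm9.
Cyp17a1 probe: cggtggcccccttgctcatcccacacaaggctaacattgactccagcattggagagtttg
*Cyp21a1*, which acts on the way to glucocorticoids and mineralocorticoids, was at 96.9 and 88.6, with a log2 ratio of -0.17 ± 0.23, and its second probe was at 5.12 and 4.77, well above background on neither array. *Cyp11a1*, the first step from cholesterol, *Cyp11b1* and *Cyp11b2*, the last steps to corticoids, and *Cyp19a1*, the aromatase, were on neither array. Their signals lay between 4.19 and 10.3. *Cyp11a1* and *Cyp19a1*, steps before and after *Cyp17a1*, were thus at background while its own probe was bright on both arrays.

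*Hsd3b1* and *Hsd3b6*, the dehydrogenases that follow *Cyp11a1*, were on neither array, and *Star*, which brings cholesterol to the mitochondrion, was on the WT array alone, at 31.7 and 18.1. *Nr5a1*, the receptor that turns on steroid P450 genes in adrenal and gonad, was at 17273 on WT and 8944 on *Sox21* KO. The sequence of its probe was not examined for repeats. The log2 ratio of *Nr5a1*, -0.99 ± 0.20, stopped just short of 2-fold. That of *Cyp17a1* was -0.05 ± 0.20, and any link between them was not tested.

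Among the P450 genes of vitamin D, *Cyp2r1*, the 25-hydroxylase, had signals of 706 ± 70.8 and 804 ± 80.5, a log2 ratio of 0.15 ± 0.20. A second probe of *Cyp2r1*, at 27.0 and 31.4, was well above background on the *Sox21* KO array alone. *Cyp27b1*, which makes the active hormone, was at 15.5 and 4.41, and *Cyp27a1*, another 25-hydroxylase, at 6.24 and 5.37, both on neither array. *Cyp24a1*, which degrades the hormone, is the gene given above with a bound. *Vdr*, the receptor of the hormone, was at 621 and 958, a log2 ratio of 0.58 ± 0.20. *Vdr* was thus higher in *Sox21* KO, and none of the 4 vitamin D genes of the family was measured as changed by 2-fold.

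Of the 6 P450 genes of bile acids and oxysterols, 3 were measured on both arrays and 3 were well above background on neither. *Cyp39a1*, the 24-hydroxycholesterol hydroxylase, had signals of 742 ± 74.3 and 788 ± 78.9 and a log2 ratio of 0.05 ± 0.20. *Cyp7b1*, the oxysterol hydroxylase, was at 168 and 178, also with a log2 ratio of 0.05, and *Cyp46a1*, which hydroxylates cholesterol in neurons, was at 179 and 165, with a ratio of -0.16. All 3 lay within their scanner error of 0. *Cyp7a1*, the rate-limiting enzyme of bile acid synthesis, was at 5.11 and 4.76, and *Cyp8b1* at 5.15 and 4.83, both on neither array. *Cyp27a1*, given above for vitamin D, is also in this list and was on neither array, at 6.24 and 5.37.

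Of the targets of the dioxin receptor, *Cyp1a1* and *Cyp1a2* were on neither array, with signals between 4.26 and 4.73. *Cyp1b1*, which in many tissues outside the liver is present without any inducer, went from 214 ± 22.1 to 294 ± 29.8, a log2 ratio of 0.41 ± 0.21. That is 1.33-fold and lies between 1 and 2 scanner errors from 0. *Ahr*, the receptor itself, had a log2 ratio of 0.25, and of its other targets *Aldh3a1* had 0.43, *Tiparp* 0.20, *Ahrr* -0.13 and *Nqo1* -0.17.

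None of the remaining measured genes of family 2 was 2-fold apart. Those named here that are in no role list and not among the 10 highest signals were chosen with their values known. *Cyp2d11* and *Cyp2d26*, of the drug-metabolizing Cyp2d group on chromosome 15, were the lowest of all measured P450 genes, with log2 ratios of -0.38 ± 0.20 and -0.32 ± 0.36. *Cyp2d11* went from 948 ± 95.0 to 749 ± 75.1, and *Cyp2d26* from 41.8 to 34.4. Of the 5 genes of the Cyp2j group, which turns arachidonic acid into epoxides, 4 were measured, with log2 ratios from -0.21 to 0.05. The lowest was *Cyp2j13*, at 30.5 and 27.2, of which another probe was on the WT array alone, at 30.9 and 20.1, a log2 ratio of -0.66 ± 0.44 against a signal not well above background. In the Cyp2c group, 3 of 13 genes were measured, with *Cyp2c37* the highest, from 103 to 148 and a log2 ratio of 0.48 ± 0.22, and *Cyp2c70*, an enzyme of muricholic acid in the mouse, at -0.06. Of family 3, the main drug-metabolizing group of liver and gut, *Cyp3a13* alone was measured, at 38.2 and 45.0, with a ratio of 0.20 ± 0.29.

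Family 4 holds hydroxylases of fatty acids, and 7 of its 15 genes were measured, 3 higher and 4 lower. *Cyp4v3*, the mouse counterpart of a gene tied to a crystalline dystrophy of the retina, went from 241 ± 24.6 to 348 ± 35.1. Its log2 ratio of 0.49 ± 0.21 was the highest below *Cyp2t4*. *Cyp4f13* was at 301 and 290, with a ratio of -0.10. *Cyp4a10* and *Cyp4a31*, neighbouring copies whose probes share a run of 34 bases, had ratios of -0.15 ± 0.32 and 0.39 ± 0.34 at signals from 29.8 to 41.6. Signal from the transcript of one copy at the probe of the other could not be told apart. *Cyp20a1*, an orphan with no established substrate, went from 154 to 193, a ratio of 0.28, while its second measured probe had -0.11.

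**Figure D4:**
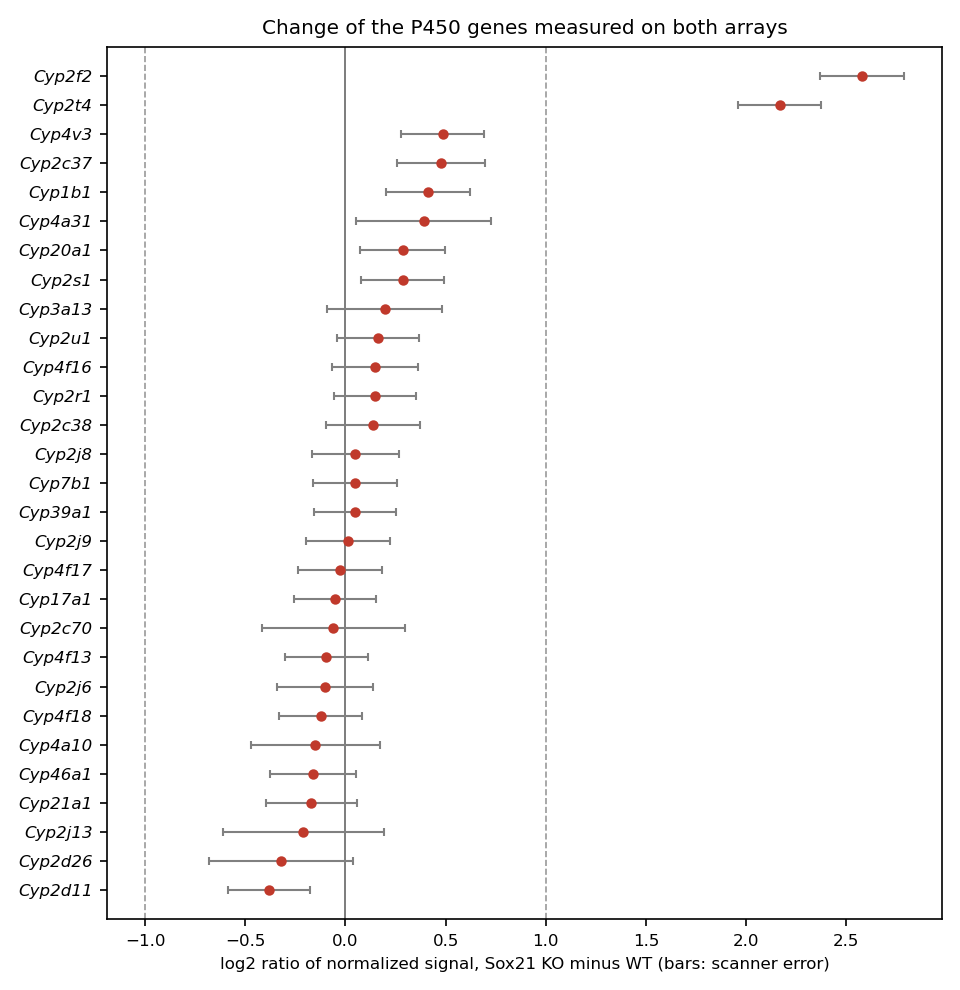
log2 ratio (x axis, *Sox21* KO minus WT) of the 29 P450 genes measured on both arrays, ordered by value, with bars for the scanner error and dashed lines at 2-fold. *Cyp2f2* at 2.58 and *Cyp2t4* at 2.17 lie apart, and the other 27 genes run from -0.38 to 0.49 without a gap of that size.

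The probe behind the value of *Cyp2u1*, which hydroxylates long-chain fatty acids, needs its sequence to be read. Its signals were 12918 ± 1292 and 14865 ± 1487, with a log2 ratio of 0.16 ± 0.20. The 60 bases of this probe hold 16 copies of GT in a row, and the probe matches an Ensembl transcript. The probe for the RefSeq transcript of *Cyp2u1* was at 8.35 and 5.35, well above background on neither array. Of the probes on the array, 51 hold at least 10 copies of GT in a row, and all 51 were well above background on both arrays, against 46.6% of all 55676 probes. Their median signal was 6909 on WT and 8534 on *Sox21* KO, where the median of all probes was 22.2 and 21.5. The dimmest of the 51 had 805 on WT and 869 on *Sox21* KO. Bright signal was thus shared by the probes with this repeat whatever their gene, and *Cyp2u1* is the only P450 gene with such a repeat in a probe. The repeat was looked for after the signal was seen, and its part in the signal was not tested.

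Other genes also rested on 1 of several probes. Of the 29 measured P450 genes, 12 have more than 1 probe, and for 8 of these no other probe was well above background on either array. *Cyp20a1* and *Cyp4f18* alone had a second probe measured on both arrays, and for *Cyp4f18* the ratios were -0.12 and 0.08. No gene had measured probes that differed by more than 1 on the log2 scale.

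The partners of the P450 enzymes were measured throughout. All 12 genes of electron transfer and haem supply were well above background on both arrays, 6 higher and 6 lower, with log2 ratios from -0.23 to 0.24 and a median of -0.00061. *Por*, the oxidoreductase that feeds microsomal P450 enzymes, had 0.16, *Fdx1*, the mitochondrial ferredoxin, 0.24, *Alas1*, the first step of haem synthesis, -0.18, and *Hmox1*, which degrades haem, -0.23. Of 19 receptors and factors that set P450 transcription, 15 were measured, 10 higher and 5 lower. *Nr1i2*, the pregnane receptor, *Nr1h4*, the bile acid receptor, and *Hnf4a*, a liver factor, were on neither array. Also on neither array were *Cyp3a11*, a known target of *Nr1i2*, and *Cyp7a1* and *Cyp8b1*, known targets of *Hnf4a*. The same held for 61.4% of all P450 genes, and any link between these factors and their targets was not tested.

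Of 19 enzymes listed for the same routes as P450 enzymes, 11 were measured, 8 higher and 3 lower. *Ptgis* and *Tbxas1* in this list are themselves P450 enzymes, which the name rule left out. *Aloxe3*, a lipoxygenase of the skin barrier, was the one gene of the 41 measured among 53 partner, receptor and route genes that passed 2-fold upwards, against 0.74% of all measured genes, and none passed it downwards. It went from 27.7 to 57.1 and passed 2-fold by a margin far smaller than the scanner error of its log2 ratio, 0.36. With normexp background correction its ratio was 0.31, and with the 75th percentile over spots other than controls 0.99, so the gene passes 2-fold under some settings and not under others. *Ephx1*, the microsomal epoxide hydrolase that acts on the products of enzymes such as *Cyp2f2*, went from 497 to 888, a log2 ratio of 0.80 ± 0.20. *Ephx2*, the soluble epoxide hydrolase, went from 455 to 365, with the lowest ratio of the 11 measured, -0.36 ± 0.21. *Star* and *Tbxas1*, on the WT array alone, were at least 1.67-fold and 1.47-fold lower in *Sox21* KO. *Ptgis*, the prostacyclin synthase, had 0.71 and *Dhcr7*, which draws on the precursor of vitamin D, 0.71. The median over the 41 measured genes of these lists was 0.08, against 0.01 over all measured genes.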

How the data were processed

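RNA was labelled with Cy3 by the authors and hybridized to SurePrint G3 Mouse GE 8×60K arrays, both on the same slide. The deposited files give for each spot a processed signal intensity, with the background removed by Feature Extraction 10.7.3.1, and its error. A second table deposited by the authors holds ratios, in which 1 divisor per array was applied to the processed signals. The methods name a percentile shift and a filter on low signals without their settings.

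Processed signals were divided by the 75th percentile over all spots of the array (268 and 276), and log2 ratios are *Sox21* KO minus WT. Outlier spots (270 other than controls) were left out, repeat spots averaged, and the brightest probe of a gene taken. Log2 ratios of repeat spots (274 probes) had a median SD of 0.09. A gene was measured if both arrays mark its probe as well above background. A gene on 1 array alone got a bound, its normalized signal over the higher of the dim probe's own and that array's lowest signal with the mark. Symbols came from RefSeq (GRCm38.p6), where 82 of 83 P450 names match and *Cyp2c44* has a newer one. Coordinates of probes are those of mm9 in the files.

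Members and lists were chosen with earlier results of these data known. Genes named were those at least 2-fold apart (or with a bound of 2-fold), the 10 highest signals, genes whose measured probes disagree by over 1, and role lists. The steps were tested on simulated data. Scaling, background correction, filters, probe choice and threshold were varied. Python 3.11.15, R 4.3.3 and limma 3.58.1 were used.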

Additional observations from a re-analysis of the deposited data

How the results depend on the processing

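Across the 10 alternatives that give ratios, *Cyp2f2* stayed between 2.12 and 2.65 and *Cyp2t4* between 1.81 and 2.24, and both kept at least 2-fold. With normexp background correction (offset 50) they were 2.12 and 1.81, a move larger than the scanner error, and 0 partner genes were at least 2-fold higher. Of 160 values of named genes, 156 moved by less than that error and 0 genes at least 2-fold apart changed sign. Without the requirement of a signal well above background, all 83 P450 genes counted as measured, 5 at least 2-fold higher, 3 lower and 28 above 0, with a median log2 ratio of -0.15. Over all genes under that setting, 2.39% were at least 2-fold higher, 3.28% lower and 42.4% above 0, with a median of -0.06. Under the scanner's milder mark of a positive and significant signal, 42 P450 genes counted as measured. Of these, 3 were at least 2-fold higher, *Cyp2a4* being the third, and 0 lower, against 1.83% and 2.02% of all genes. With the 75th percentile over spots other than controls, 0 partner genes were at least 2-fold higher and 1, *Nr5a1*, lower, and at 1.5-fold 4 of 41 were higher and 1 lower, against 3.20% and 2.98% of all measured genes. No paired analysis was possible because each genotype has 1 array. For the 51 P450 genes well above background on neither array a difference was not detectable, and the spread between animals is unknown.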
